A study of Mus musculus with 6 samples.

Results

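Axon guidance ligands and receptors were compared between 2 immortalised mouse hypothalamic cell lines that are both labelled as expressing neuropeptide Y (NPY). A_212 was derived from adult and N_46 from embryonic hypothalamus, each by overexpressing SV40 T-antigen, a viral oncoprotein, and neither line was given a further treatment. Each line was grown on 3 plates in DMEM with 5% fetal bovine serum to 70% confluence, and RNA of each plate was read on 1 array, giving 6 arrays. Since each age is represented by 1 line, effects of age and of the particular line cannot be told apart, and p-values measure the spread between plates. The genes were chosen by symbol: semaphorins of classes 3 to 7, plexins, neuropilins Nrp1 and Nrp2, netrins 1, 3 and 4, Dcc and the Unc5 receptors, Slit1 to Slit3, Robo1 to Robo4, ephrins and Eph receptors. They were read by 96 of the 20380 probe sets that the platform annotation names for a single gene, and they made up 57 of 12393 genes measured. Some genes of these families, Robo2 among them, had no such probe set and were not measured. Unc50, which the letters of the rule also match, encodes an unrelated protein and was left out.

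Guidance molecules are cues and receptors by which growing axons and migrating cells are attracted or repelled. Semaphorins act through plexins, with neuropilins as co-receptors for the secreted class 3 members. Netrins act through DCC and UNC5 receptors, and Slits through Robo receptors. Ephrins are bound to the membrane and signal on contact with Eph receptor tyrosine kinases. The same families shape blood vessels and mesenchyme, and in the hypothalamus they guide fibres and the migration of neuroendocrine neurons.

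The deposited values are centred on a log2 scale, with the median of the 6 arrays set to 0 for every probe set, so they hold differences between arrays and no level. Whether a gene was expressed at all, and whether either line carries the markers of hypothalamic neurons, cannot be read from them. A difference below is N_46 minus A_212, so that a positive value is higher in N_46, and is given with the standard error (SE) of a limma fit over 3 arrays per line. A base of 2 was inferred for the logarithm, and each fold rests on it. A gene was called at a Benjamini-Hochberg adjusted p under 0.05 over all 12393 genes.

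Of the 57 guidance genes, 28 were called (49.1%), against 39.2% of all genes. Higher values in N_46 were called for 15 of the 57, against 20.9% of all genes, and higher values in A_212 for 13, against 18.3%. The balance over all genes depended on the scaling, with 2586 higher in N_46 and 2267 in A_212 as deposited and 2284 and 2472 with arrays set to a common median, while the guidance genes gave 15 and 13 in both. The median difference was 0.08 over the guidance genes and 0.06 over all genes, and the median size regardless of sign was 0.25 and 0.17. Called differences of at least 1 on the log2 scale, which is 2-fold, were found for 12 of the 57, against 5.83% of all genes, 7 of them higher in N_46 and 5 in A_212. No overlap between the arrays of the lines was found for 31 guidance genes (54.4%), among them all 28 that were called, against 51.1% of all genes. Ligands and receptors were both divided: of 31 ligands 7 were higher in N_46 and 7 in A_212, and of 26 receptors 8 and 6. The plot of per-array values shows the 12 genes with differences of at least 1.

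**Figure D1:**
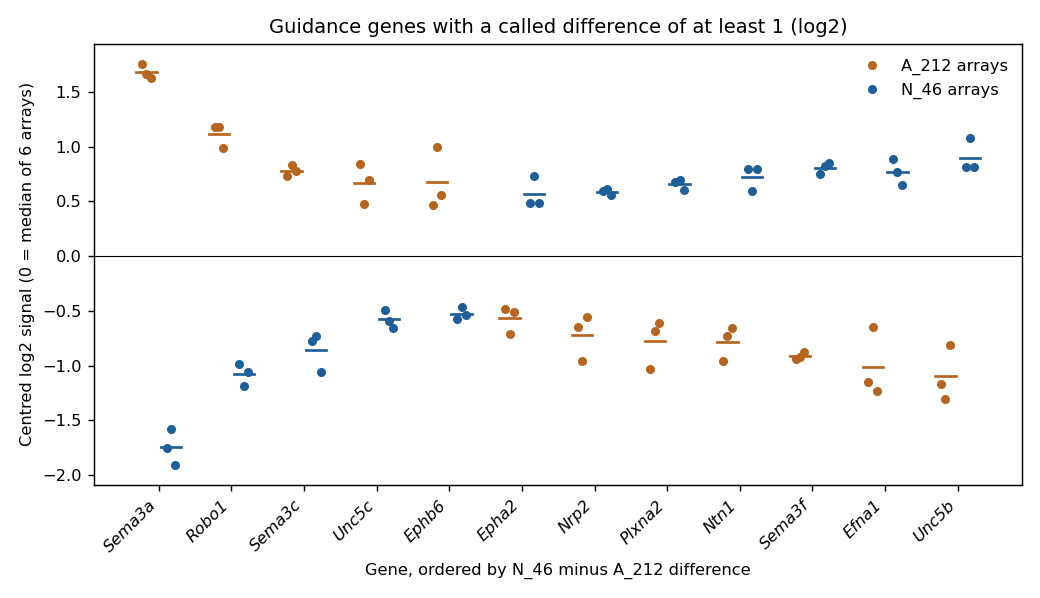
Centred log2 signal (y axis, 0 is the median of the 6 arrays) of the 12 guidance genes with a called difference of at least 1 (x axis, ordered by difference), with 1 point per array and a bar at the mean of 3 arrays per line. In none of these genes do the lines overlap, and with the median set to 0 they therefore lie on opposite sides of it. The genes run from Sema3a, at 1.63 to 1.75 in A_212, to Unc5b, at 0.81 to 1.08 in N_46.

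Promoters were looked up for the genes in a RefSeq table of assembly GRCm38.p6, which held 62 start sites for 49 of the 57 genes. The 250 bases before the start site are shown for the 3 class 3 semaphorin genes of chromosome 5, which had differences of 1 sign, and for the netrin receptor genes Unc5b and Unc5c, which had opposite signs. Capitals mark every CpG dinucleotide, the site of DNA methylation, and sequences read 5′ to 3′ along the gene.
Sema3a, chr5:13396534-13396783, plus strand: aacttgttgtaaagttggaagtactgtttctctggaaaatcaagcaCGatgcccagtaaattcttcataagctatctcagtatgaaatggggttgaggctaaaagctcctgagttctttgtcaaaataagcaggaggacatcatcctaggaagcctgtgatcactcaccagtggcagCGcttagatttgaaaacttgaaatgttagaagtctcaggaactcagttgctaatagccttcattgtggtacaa
Sema3e, chr5:14025026-14025275, plus strand: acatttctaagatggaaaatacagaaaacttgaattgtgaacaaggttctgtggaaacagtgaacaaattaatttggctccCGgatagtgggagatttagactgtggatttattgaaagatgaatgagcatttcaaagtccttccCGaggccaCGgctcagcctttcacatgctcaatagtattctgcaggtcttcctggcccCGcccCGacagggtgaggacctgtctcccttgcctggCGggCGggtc
Sema3c, chr5:17574566-17574815, plus strand: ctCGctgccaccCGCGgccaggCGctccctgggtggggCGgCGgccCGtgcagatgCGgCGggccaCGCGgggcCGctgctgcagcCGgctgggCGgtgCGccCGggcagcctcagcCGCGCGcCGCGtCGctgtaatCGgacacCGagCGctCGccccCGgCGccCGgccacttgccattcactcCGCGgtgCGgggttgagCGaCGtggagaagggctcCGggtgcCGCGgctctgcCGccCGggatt
Unc5b, chr10:60831582-60831831, minus strand: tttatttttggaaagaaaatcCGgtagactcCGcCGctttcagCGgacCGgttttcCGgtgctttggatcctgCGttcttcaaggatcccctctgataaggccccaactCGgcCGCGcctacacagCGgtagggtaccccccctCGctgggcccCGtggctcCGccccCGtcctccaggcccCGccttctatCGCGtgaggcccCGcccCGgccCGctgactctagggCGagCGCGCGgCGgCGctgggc
Unc5c, chr3:141465314-141465563, plus strand: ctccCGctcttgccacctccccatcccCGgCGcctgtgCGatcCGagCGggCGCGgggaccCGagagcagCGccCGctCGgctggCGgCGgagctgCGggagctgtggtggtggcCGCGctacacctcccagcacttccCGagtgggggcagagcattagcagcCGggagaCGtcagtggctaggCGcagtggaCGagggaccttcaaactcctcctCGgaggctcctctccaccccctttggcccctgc

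The 3 linked semaphorin promoters differed widely in CpG content. Sema3a had 2 CpG in 250 bases, Sema3e had 7 and Sema3c had 39, and the median over all 32851 start sites of the table was 6. Unc5b had 27 and Unc5c 23, so that the pair with opposite differences had like counts. Over the guidance genes the median was 16 CpG at 16 start sites of genes higher in N_46, 14.5 at 16 start sites of genes higher in A_212 and 15.5 at 30 start sites of genes not called. The letters TATAAA, the core of the TATA box, stood on either strand in 2 of the 62 windows (3.23%), those of Slit2 and Efnb2, against 12.4% of all windows in the table. These are counts of letters in a window and show no site in use.

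Among semaphorins, the class 3 genes, which encode secreted and mostly repellent ligands, carried the large differences. All 5 class 3 genes measured were called, against 39.2% of all genes. Sema3a, Sema3b, Sema3c and Sema3e were higher in A_212 and Sema3f was higher in N_46. Sema3a, the collapsin that repels axons through neuropilin 1, read 1.75, 1.66 and 1.63 on the arrays of A_212 and -1.75, -1.58 and -1.91 on those of N_46. The lines were separated by a gap of 3.21 between their nearest arrays. The difference was -3.43 ± 0.09 (SE, n = 3 arrays per line, limma adjusted p = 1.0e-09), a 10.7-fold excess in A_212 that was number 61 in size among the 12393 genes. Its 3 probe sets gave -3.42, -2.79 and -4.07.

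Sema3c, whose protein binds both neuropilins and is known from cardiac outflow and axon development, read 0.73, 0.83 and 0.78 in A_212 and -0.78, -0.73 and -1.06 in N_46. All arrays of A_212 were thus above all of N_46, with a difference of -1.64 ± 0.09 (limma adjusted p = 3.0e-07, 3.11-fold). Sema3e, whose protein binds plexin D1 without a neuropilin, differed in the same direction by -0.49 ± 0.08, with probe sets from -0.59 to -0.40. Sema3b differed by -0.35 ± 0.08, but only 1 of its 3 probe sets was called alone, at -0.80, and the others gave -0.06 and -0.18.

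Sema3f, whose protein repels axons through neuropilin 2, had the opposite sign. It read -0.94, -0.93 and -0.87 in A_212 and 0.75, 0.82 and 0.85 in N_46, so the replicates of each line were close together and the lines far apart. The difference was 1.72 ± 0.07 (limma adjusted p = 1.9e-08, 3.29-fold), with probe sets at 1.12 and 2.32, of which the lower is the one of the plain type, designed to match a single transcript.

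Sema3a, Sema3e and Sema3c lie in that order on chromosome 5. Of the 10 measured genes nearest Sema3a, which include Sema3e, 4 were higher in A_212 and 1 in N_46, with a median difference of 0.00. Around Sema3c the counts were the same, with a median of 0.01, but the neighbourhoods overlap. Sema3e, Pclo, Cacna2d1 and Hgf belong to both, and all of these but Pclo were higher in A_212. Hgf, the gene of hepatocyte growth factor, was at -0.98. Gnai1, the gene of an inhibitory G protein subunit, was at -3.43 and was a neighbour of Sema3c alone, as was A630072M18Rik, higher in N_46 at 1.08. Over chromosome 5 as a whole, 771 genes had a median of 0.11, with 227 higher in N_46 and 87 in A_212, the sign opposite to that of these semaphorins. Sema3b and Sema3f lie near each other on chromosome 9, where 684 genes had a median of -0.07, with 51 higher in N_46 and 239 in A_212. Sema3b had the sign of that median and Sema3f the opposite sign. This view by chromosome was added after the values were seen, and a part of chromosomal position in the differences was not tested.

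**Figure D2:**
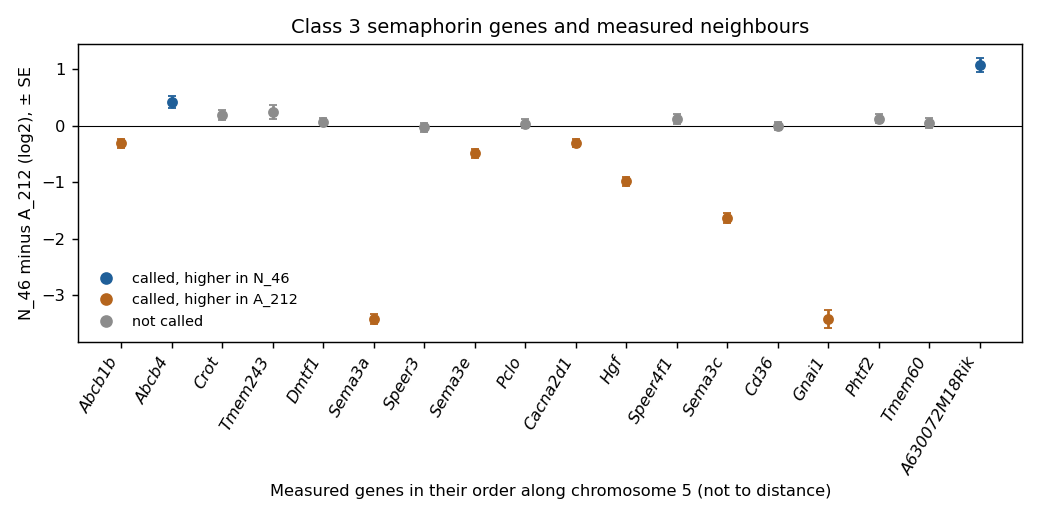
Difference between the lines (y axis, N_46 minus A_212, log2, bars are SE over 3 arrays per line) for 18 measured genes in their order along chromosome 5 (x axis, not to distance), coloured by call. Sema3a at -3.43, Sema3e at -0.49 and Sema3c at -1.64 lie below 0 among genes that are mostly near it. Hgf, Gnai1, Cacna2d1 and Abcb1b were also called below 0, and Abcb4 at 0.42 and A630072M18Rik at 1.08 above it.

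The 12 semaphorins of classes 4 to 7, most of them membrane-bound, differed little. Of these, 3 were higher in N_46, 1 was higher in A_212 and 8 were not called (33.3% called, against 39.2% of all genes). Sema4a, known for roles in immune cells and the retina, was higher in A_212 (-0.44 ± 0.09), and its probe sets gave -0.56 and -0.32. Sema7a, a lipid-anchored semaphorin that can act through integrins, was higher in N_46 (0.35 ± 0.10), as were Sema5b (0.32 ± 0.10) and Sema4d, a ligand of B-type plexins (0.29 ± 0.08). These 3 calls were near the threshold and ended when certain arrays were left out. Without A_212 replicate 1, Sema5b was 0.22 (limma adjusted p = 0.11) and Sema4d 0.22 (0.069), and without A_212 replicate 2 Sema7a was 0.25 (0.052). Sema4d also lost the call without N_46 replicate 2 or 3, and Sema5b without either of these or A_212 replicate 2, with differences that stayed close to those on all arrays (0.29 and 0.30 for Sema4d, 0.29 to 0.35 for Sema5b). The 8 genes not called had differences from -0.20 to 0.12, and their 95% intervals lay between -0.53 and 0.30.

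Among the receptors and co-receptors of semaphorins of all classes, both neuropilin genes and 1 of 7 plexin genes were called, all higher in N_46. Of all genes, 39.2% were called. Nrp2, the co-receptor preferred by semaphorin 3F, read -0.65, -0.96 and -0.56 in A_212 and 0.60, 0.61 and 0.56 in N_46. No array of A_212 reached those of N_46, and the difference was 1.31 ± 0.10 (limma adjusted p = 2.8e-06, 2.48-fold). Nrp1, the co-receptor preferred by semaphorin 3A and also a co-receptor of vascular endothelial growth factor, read -0.65, -0.15 and -0.18 in A_212 and 0.11, 0.28 and 0.25 in N_46. Its difference was 0.54 ± 0.12 (limma adjusted p = 0.0056), with A_212 replicate 1 well below the other two, and 1 of its 3 probe sets was not called alone (0.31).

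Plxna2, which encodes a signalling partner of neuropilins, was the plexin gene with a call. It read -1.03, -0.69 and -0.61 in A_212 and 0.68, 0.70 and 0.61 in N_46, a difference of 1.43 ± 0.10 (limma adjusted p = 2.0e-06, 2.70-fold). The related Plxna1 and Plxna3 were not called, at 0.12 (95% interval -0.13 to 0.36) and -0.14 (-0.30 to 0.02). Neither were Plxnb2 (0.08), Plxnb3 (0.15), Plxnc1, the receptor gene for semaphorin 7A (0.12), or Plxnd1, the receptor gene for semaphorin 3E (0.25), which was called without A_212 replicate 3 (0.35, limma adjusted p = 0.021) and lay at 0.12 without A_212 replicate 1 (adjusted p = 0.33).

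Netrin genes with a call were higher in N_46. Ntn1, the netrin that attracts axons through DCC and repels them through UNC5 receptors, read -0.96, -0.73 and -0.66 in A_212 and 0.79, 0.59 and 0.79 in N_46. The lines did not overlap, and the difference was 1.51 ± 0.10 (limma adjusted p = 7.1e-07, 2.84-fold). Its 2 probe sets had 1 sign and different sizes, at 0.79 and 2.23. Ntn4, a netrin of basement membranes that binds laminin, differed by 0.45 ± 0.10 (limma adjusted p = 0.0048). On chromosome 10, where Ntn4 lies, taking out the chromosome's median difference lowered this to 0.27 and ended the call (limma adjusted p = 0.063); this correction was chosen with the results in view. Ntn3 was not called, at -0.18 (95% interval -0.44 to 0.08); without A_212 replicate 1 it was called at -0.31 (limma adjusted p = 0.035), and without A_212 replicate 3 it was -0.04.

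The netrin receptor genes went 3 ways. Unc5b, a repulsive netrin receptor also known from vessel sprouting, had the largest difference of the 57 genes in favour of N_46, with -1.17, -1.30 and -0.81 in A_212 against 0.81, 1.08 and 0.81 in N_46. The difference was 1.99 ± 0.13 (limma adjusted p = 6.5e-07, 3.98-fold), from 1 probe set. Unc5c, its paralogue best known from cerebellar migration, read 0.84, 0.48 and 0.69 in A_212 and -0.49, -0.59 and -0.65 in N_46. That is a difference of -1.25 ± 0.10 (limma adjusted p = 3.0e-06, 2.37-fold) in the opposite direction, and its 2 probe sets gave nearly the same value (-1.25 and -1.24). Dcc, the attractive receptor, was not called, at 0.12 ± 0.11 (95% interval -0.13 to 0.37), and its arrays overlapped, with -0.15, -0.26 and 0.18 in A_212 against 0.09, 0.13 and -0.09 in N_46.

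In the Slit and Robo system, Robo1 had the largest difference. This receptor, which mediates repulsion by Slits, read 1.18, 1.18 and 0.99 in A_212 and -0.99, -1.19 and -1.06 in N_46. The groups were separated by 1.98, and the difference was -2.19 ± 0.08 (limma adjusted p = 1.4e-08, 4.57-fold higher in A_212), from 1 probe set. Robo3, which regulates midline crossing of commissural axons, was called with a small difference in the other direction (0.29 ± 0.09, limma adjusted p = 0.030), and leaving out A_212 replicate 1, A_212 replicate 2, N_46 replicate 1 or N_46 replicate 2 ended that call (adjusted p from 0.064 to 0.10). Robo4, an endothelial member, was not called (0.15, 95% interval -0.0036 to 0.31).

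Of the 3 ligand genes, Slit2 was higher in A_212, with 0.01, 0.42 and 0.31 against -0.01, -0.23 and -0.29 in N_46. The nearest arrays of the lines were only 0.03 apart, the difference was -0.43 ± 0.11 (limma adjusted p = 0.012), and the call ended narrowly without A_212 replicate 2 (adjusted p = 0.051). Slit1 and Slit3 were not called, at 0.17 and 0.13, and both were called without A_212 replicate 3 (0.31, adjusted p = 0.0093, and 0.24, adjusted p = 0.033). Other arrays moved them the other way, Slit1 to 0.10 without A_212 replicate 2 and 0.11 without A_212 replicate 1, and Slit3 to 0.06 without A_212 replicate 1.

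**Figure D3:**
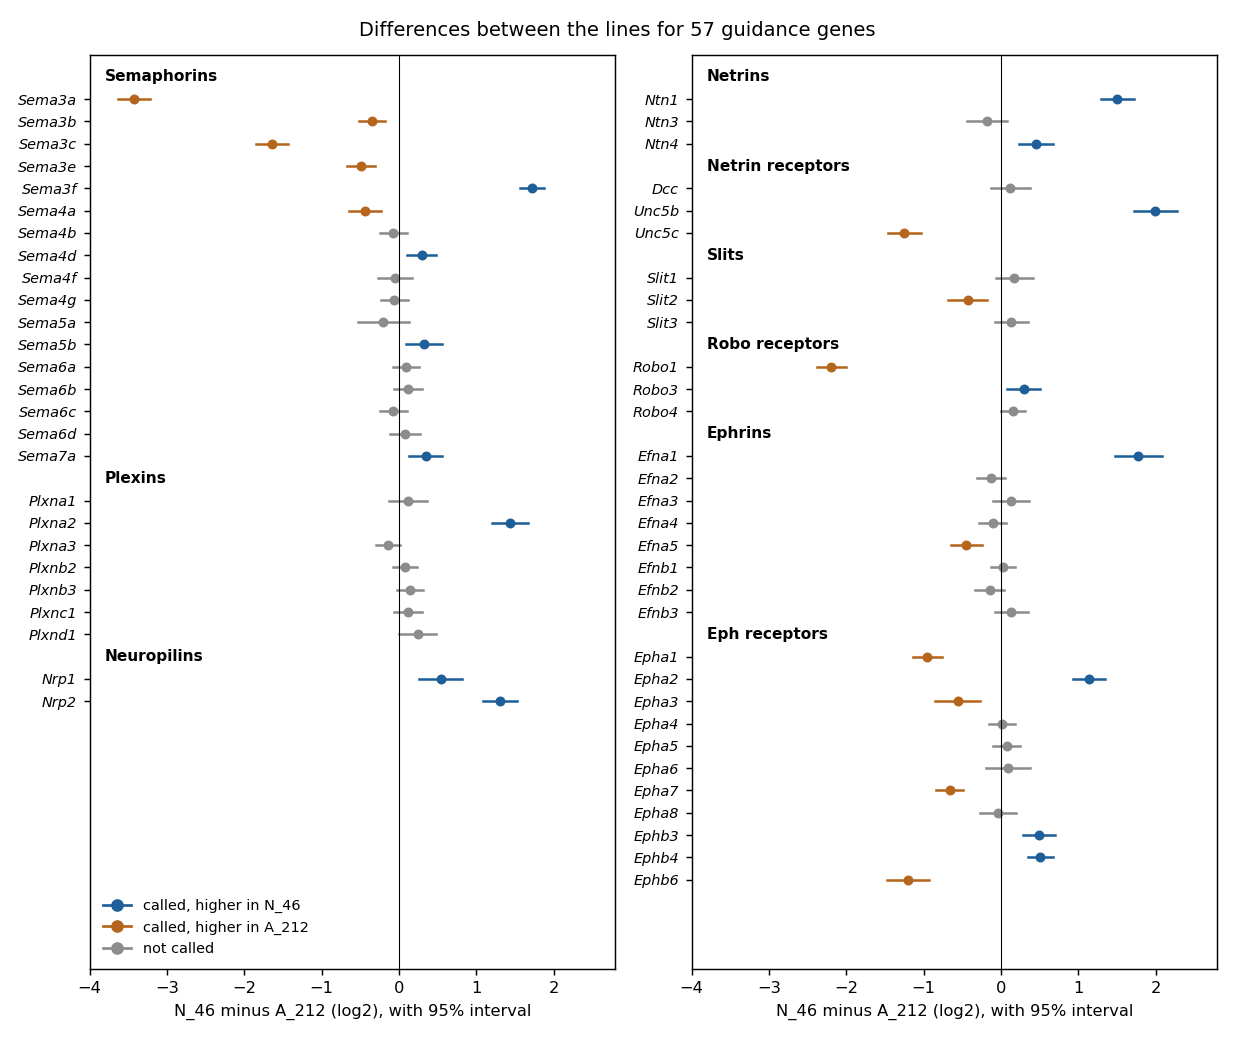
Difference between the lines (x axis, N_46 minus A_212, log2; bars are 95% intervals of the limma fit on 3 arrays per line) for the 57 guidance genes (y axis), by family and coloured by call. Plexins and ephrins are mostly near 0 with 1 or 2 genes apart, while class 3 semaphorins and Eph receptors lie on both sides.

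Ephrin ligand genes were mostly near 0, with 2 of 8 called (25%, against 39.2% of all genes). Efna1, a lipid-anchored ephrin and the main ligand of EphA2, read -1.15, -0.65 and -1.23 in A_212 and 0.89, 0.76 and 0.65 in N_46. A_212 replicate 2 was nearer to N_46 than the other arrays of its line and still far below it. The difference was 1.78 ± 0.14 (limma adjusted p = 3.2e-06, 3.43-fold), and its probe sets gave 1.67 and 1.88. Efna5, a repellent cue in topographic maps, was higher in A_212, at -0.45 ± 0.09 (limma adjusted p = 0.0027). Efna2, Efna3 and Efna4 had differences of -0.12, 0.13 and -0.11, and the transmembrane ephrin genes Efnb1, Efnb2 and Efnb3 had 0.03, -0.14 and 0.14, none of them called.

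Of 11 Eph receptor genes, 3 were higher in N_46, 4 in A_212 and 4 were not called (63.6% called, against 39.2% of all genes). Epha2, an Eph receptor common in epithelial and progenitor cells, shared its sign with the gene of its ligand ephrin-A1. It read -0.49, -0.71 and -0.51 in A_212 and 0.49, 0.73 and 0.49 in N_46, a difference of 1.14 ± 0.09 (limma adjusted p = 4.8e-06, 2.20-fold). The other EphA genes with a call were all higher in A_212: Epha1 by -0.95 ± 0.08, Epha7, a receptor of cortical and retinal mapping, by -0.66 ± 0.08, and Epha3, a receptor for ephrin-A5 also found on mesenchyme, by -0.56 ± 0.13. The size of these 3 differed between probe sets, from -1.62 to -0.57 for Epha1, from -1.42 to -0.04 for Epha7 and from -1.14 to -0.08 for Epha3, and in Epha7 and Epha3 a single probe set was not called alone. Epha4, Epha5, Epha6 and Epha8 had differences from -0.04 to 0.09, with 95% intervals between -0.26 and 0.38.

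All 3 EphB genes measured were called, against 39.2% of all genes. Ephb6, whose protein lacks kinase activity, read 0.47, 0.997 and 0.56 in A_212 and -0.57, -0.47 and -0.54 in N_46. A_212 replicate 2 stood above the other arrays of its line, and the difference was -1.20 ± 0.12 (limma adjusted p = 2.4e-05, 2.30-fold higher in A_212). Ephb4, the venous receptor for ephrin-B2, was higher in N_46 by 0.51 ± 0.07 (limma adjusted p = 0.00022) and Ephb3, known from axon crossing and gut epithelium, by 0.49 ± 0.09 (0.0017), each from 1 probe set.

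Several probe sets were available for 25 of the 57 genes and for 15 of the 28 that were called. In all 15 the probe sets had 1 sign, and in 8 every probe set was called alone. Counted singly, 42 of the 96 probe sets were called, against 37.4% of all 20380. The remaining 13 called genes rest on 1 probe set each, among them Robo1, Unc5b, Sema3c, Plxna2, Nrp2, Ephb6 and Epha2, so for these no second reading of the same gene was available.

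**Figure D4:**
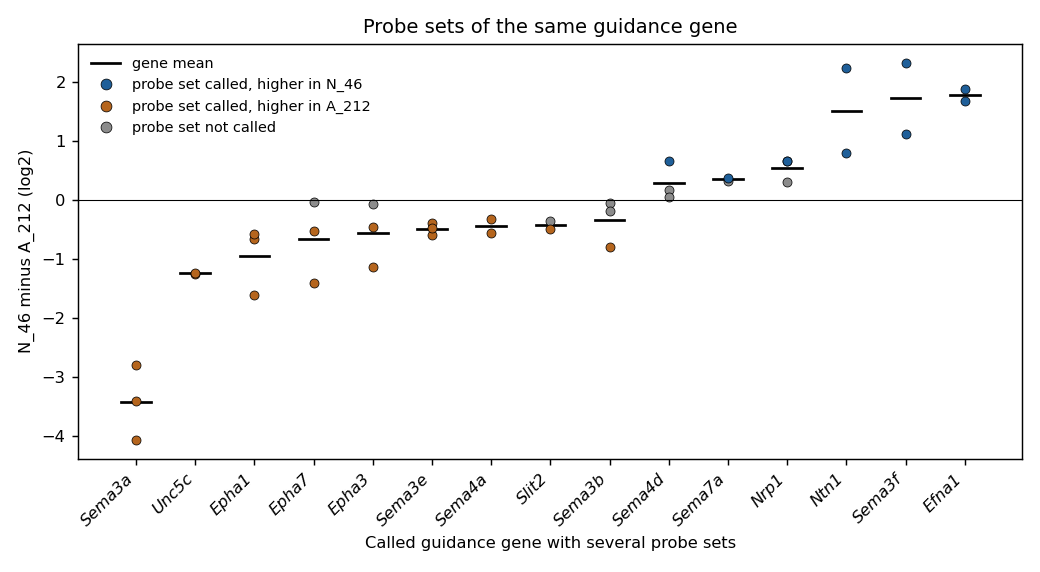
Difference between the lines (y axis, N_46 minus A_212, log2) of each probe set (points, coloured by its own call) of the 15 called guidance genes with several probe sets (x axis), with the gene mean as a bar. Probe sets of a gene lie on the same side of 0 and differ in size, as in Sema3f (1.12 and 2.32) and Epha7 (-1.42 to -0.04).

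The spread between plates was wider for the guidance genes than for all genes in A_212, with a median SD of 0.14 against 0.10, and not in N_46 (0.07 against 0.08). A_212 replicate 3 was the highest array of its line for 33 of the 57 genes and for 21 of the 29 that were not called, against 35.3% of all genes. Without it, 19 guidance genes were called higher in N_46 and 13 in A_212, the additional ones being Plxnd1, Slit1, Slit3 and Efna3. Differences of the 29 genes not called ran from -0.20 to 0.25, and their 95% intervals stayed between -0.53 and 0.48.

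Other genes of guidance pathways were read from lists written for this report. Of 29 measured genes of other cues and co-receptors, 2 were higher in N_46, 7 in A_212 and 20 were not called (31.0% called, against 39.2% of all genes), with a median difference of 0.06. Gpc1, a glypican that binds Slits, was higher in N_46 (1.85) as was Gfra1 (0.53), a receptor subunit for the factor GDNF, and the adhesion molecule gene Alcam (-2.20), the chemokine scavenger receptor gene Ackr3 (-2.20) and the pseudokinase gene Ptk7 (-0.89) were higher in A_212. Of 52 measured genes that carry guidance signals inside the cell, 17 were higher in N_46, 15 in A_212 and 20 were not called (61.5% called), with a median of 0.06. The exchange factor genes Ngef (1.55) and Vav3 (1.39), both acting below Eph receptors, were higher in N_46, as was Rnd3 (1.09). The Rac inactivator gene Chn1 (-2.42), which acts below EphA4, the collapsin response mediator gene Dpysl3 (-1.02) and the exchange factor gene Farp1 (-0.81) were higher in A_212.

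Marker genes of several cell types were read as well. Over all genes, 39.2% were called, 20.9% higher in N_46 and 18.3% higher in A_212. Fibroblast and mesenchymal markers were higher in A_212 for 11 of 15 measured and in N_46 for 1 (80% called). Their mean centred value per array was 0.99 to 1.24 in A_212 and -1.17 to -1.01 in N_46. Neural progenitor markers were higher in N_46 for 6 of 10 and in A_212 for 2 (80% called), with a median difference of 0.35. Their array means were -0.53 to -0.44 in A_212 and 0.44 to 0.46 in N_46, and Sox2 alone, at 7.24, carried much of this: without it they were -0.19 to -0.10 and 0.08 to 0.12. Neuronal markers were divided (2 higher in N_46, 3 in A_212, 9 of 14 not called, 35.7% called). So were endothelial (4, 3 and 6 of 13, 53.8% called) and astrocyte markers (2, 2 and 5 of 9, 44.4% called). Of 8 oligodendrocyte lineage markers, 0 were higher in N_46, 2 were higher in A_212 and 6 were not called (25% called). Array means were 0.12 to 0.14 in A_212 and -0.19 to -0.10 in N_46 for the neuronal list, which leans on Stmn2 (-3.09): 10 of its 14 genes had a positive difference, the list's median was 0.08, and without Stmn2 the array means were 0.0022 to 0.04 and -0.06 to 0.0037. For the endothelial list they were -0.04 to 0.17 in A_212 and -0.06 to -0.04 in N_46. This list leans on Eng (-2.44): without it the means were -0.13 to 0.09 in A_212 and 0.05 to 0.07 in N_46. For the astrocyte list they were -0.21 to -0.11 in A_212 and 0.12 to 0.18 in N_46. Without Slc1a3 (2.47) the astrocyte means were -0.04 to 0.01 and -0.01 to 0.04. The oligodendrocyte lineage list gave 0.03 to 0.16 in A_212 and -0.14 to -0.02 in N_46. Without Cspg4 (-1.31) its means were -0.05 to 0.08 and -0.07 to 0.07. The part of these marker differences in the guidance genes was not tested.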

How the data were processed

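The deposited values are log2 signals of 22690 probe sets on an Affymetrix mouse array, made by the authors with RMA, per the submitters' processing notes; its version and the centring step are not given in the sources used here. RMA makes array distributions alike, so a difference in total RNA would not show. Names came from the platform annotation, controls and probe sets naming several genes were left out, and the probe sets of a gene were averaged. The lines were compared over all 12393 genes by limma's moderated two-sided test (lmFit, eBayes), with the 6 arrays in 1 fit and Benjamini-Hochberg adjustment, and the script was tested on simulated data. Precision is limited by the number of arrays.

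The guidance genes and the lists were chosen with earlier results of these data known. Values of every array are given for called genes with a difference of at least 1, differences for other called genes, and, of genes not called, those that are partners of a gene described. From the lists of other cues and of intracellular signalling, up to 3 genes each way are named. Neighbouring genes and promoters came from RefSeq tables of GRCm38.p6. The alternatives tried were a common median or 75th percentile per array, a replicate block, array weights, robust eBayes, treat against a log2 difference of 1, plain probe sets alone, probe sets singly and each array left out. The fits ran in limma 3.58.1 under R 4.3.3, and tables and plots were made in Python 3.11.15 with pandas 2.3.3, matplotlib 3.10.9 and numpy 2.4.6.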

Additional observations from a re-analysis of the deposited data

How the results depend on the processing

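The 12 guidance genes with a difference of at least 1 kept their call and direction in every alternative that measured them, except treat against a log2 difference of 1. Their limma adjusted p-values went up to 0.00038. Epha2, which is among them, has no plain probe set and was not measured in the alternative with plain probe sets alone. Treat called 5 guidance genes higher in N_46 (Unc5b, Efna1, Sema3f, Ntn1 and Plxna2) and 3 higher in A_212 (Sema3a, Robo1 and Sema3c), and 138 and 268 of all genes. Probe sets taken singly gave 19 and 23 calls among guidance genes and 4003 and 3621 among all, counts of probe sets and not of genes. Leaving out 1 array gave 12 to 19 guidance genes higher in N_46 and 12 to 14 higher in A_212, and 1986 to 2858 and 1891 to 2266 of all genes. Array weights gave 17 and 13 guidance genes and 3270 and 2487 of all genes. With plain probe sets alone the counts were 13 and 11, because 4 called genes (Sema3b, Efna5, Epha2 and Ephb4) have no probe set of that type. Leaving treat and single probe sets aside and counting the chromosome correction below, 22 of the 28 called genes were called in every setting that measured them. The 4 genes with no plain probe set were not measured in that setting. The call was lost in at least 1 setting by 6 genes (Robo3, Sema4d, Sema5b, Sema7a, Slit2 and Ntn4), and the cause was not tested. When values were corrected for the median difference of their chromosome, which was chosen with the results in view, 15 and 14 guidance genes and 1953 and 2526 of all genes were called, with Sema6a (0.22), Robo4 (0.22) and Efna2 (-0.31) gained and Ntn4 (0.27) and Sema5b (0.26) lost. Sign changes occurred in 18 cases for differences that were not called before or after. With the replicate number as a block, 15 and 13 guidance genes and 2576 and 2258 of all genes were called; same-numbered arrays of the lines had deviations correlated at -0.03, -0.01 and 0.09, so the numbers were not taken to pair the plates, and not every array correlated best with its own number.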
